A study of Mus musculus with 24 samples.

Results

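The comparison asked whether the change that loss of Notch2 brought to the transcriptome under imiquimod (IMQ) was the same in Ly6Chi and Ly6Clo blood monocytes or differed between them. It used 16 of the 24 RNA-sequencing libraries of the study, which form 4 groups of 4: Ly6Chi and Ly6Clo cells of wt and of N2ΔMy mice, all after IMQ. The quantity is an interaction, the log2 difference N2ΔMy minus wt in Ly6Clo cells minus the same difference in Ly6Chi cells, so a positive value means that a transcript was raised more, or lowered less, by the mutation in Ly6Clo cells. It was fitted for 11230 genes, those whose normalised count reached 50 in 1 or more of the 24 libraries.

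All mice were on a C57BL/6 background, 8 to 10 weeks of age, and GFP from the Cx3cr1 locus marked the monocytes in the sort. N2ΔMy mice carry a floxed Notch2 allele pair and Cre under the control of Lyz2, a promoter active in myeloid cells and not in monocytes alone, and the controls are called wt by the labels. Mice of the 4 groups received 50 mg per day of Aldara, a cream with 5% imiquimod, which activates TLR7, on depilated skin for 4 to 5 days, and blood was taken on day 5. Cells of both subsets were sorted as negative for lineage markers, CD11b+, GFP+, CD115+ and MHC-II-. The Ly6Chi gate also required absence of CD43, whereas the Ly6Clo gate set no CD43 or F4/80 requirement. The 8 remaining libraries are Ly6Chi cells of both genotypes after Sham cream, and they enter below only where named. The labels do not say whether each library is a separate mouse, so the p-values measure the spread between libraries, which may be technical in part.

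Ly6Chi monocytes are released from the bone marrow, enter inflamed tissue and can become macrophages there, while in the circulation they can convert to Ly6Clo cells that patrol the vessel wall. Notch2, a receptor cleaved on contact with a ligand such as Dll1, promotes that conversion by releasing a fragment that acts on genes with the DNA-binding protein Rbpj, and the nuclear receptor Nr4a1 is required for Ly6Clo cells. Hes1 is a direct target of Notch signaling.

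The reads behind the 16 libraries, inferred from the rounded values, lay between 10361145 and 17091919, and 9321 to 9691 genes per library reached 50 normalised counts. Replicates 1 and 2 carry library numbers of an earlier series than replicates 3 and 4. Ly6c2, which encodes the Ly6C antigen, lay between 2370 and 9161 in the 8 Ly6Chi libraries and between 12 and 382 in the 8 Ly6Clo libraries, and Spn, which encodes CD43, was higher in each Ly6Clo library than in any Ly6Chi library. Csf1r (CD115) and Itgam (CD11b) were at 14998 or more and 4404 or more in all 16.

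The genotype difference depended on the subset for 271 genes, 2.41% of those tested, where a call needs p no greater than 0.05 in limma after Benjamini-Hochberg adjustment and a log2 value of 0.6 or more in size. Of these, 241 (2.15%) were higher and 30 (0.267%) were lower in the interaction. An unadjusted p under 0.05 was found for 1479 genes. The 241 were, as a group, changed in Ly6Clo and little in Ly6Chi cells: their median log2 difference N2ΔMy minus wt was 1.54 in Ly6Clo and 0.17 in Ly6Chi cells. The median over all genes tested was -0.0035 in Ly6Clo and 0.014 in Ly6Chi cells. For 220 of the 241 the lowest of the 4 group means was that of wt Ly6Clo cells. In wt mice 204 of them were called lower in Ly6Clo than in Ly6Chi cells, a call made for 14.9% of all genes, with a median over the 241 of -1.74, whereas the median difference between the subsets in N2ΔMy mice was -0.30. Group means and subset differences of these genes use the libraries of the interaction that chose them, so they are a description. The N2ΔMy Ly6Clo mean lay between the wt means of the 2 subsets for 137 of the 241, and for 89 it was the highest of the 4 group means. The 30 lower genes were a mirror of smaller size, with a median interaction of -0.79, a median difference of -0.86 in Ly6Clo and -0.01 in Ly6Chi cells, and the highest mean in wt Ly6Clo cells for 26. In bulk libraries a change in the share of cells of a type and a change in RNA per cell cannot be told apart.

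**Figure D1:**
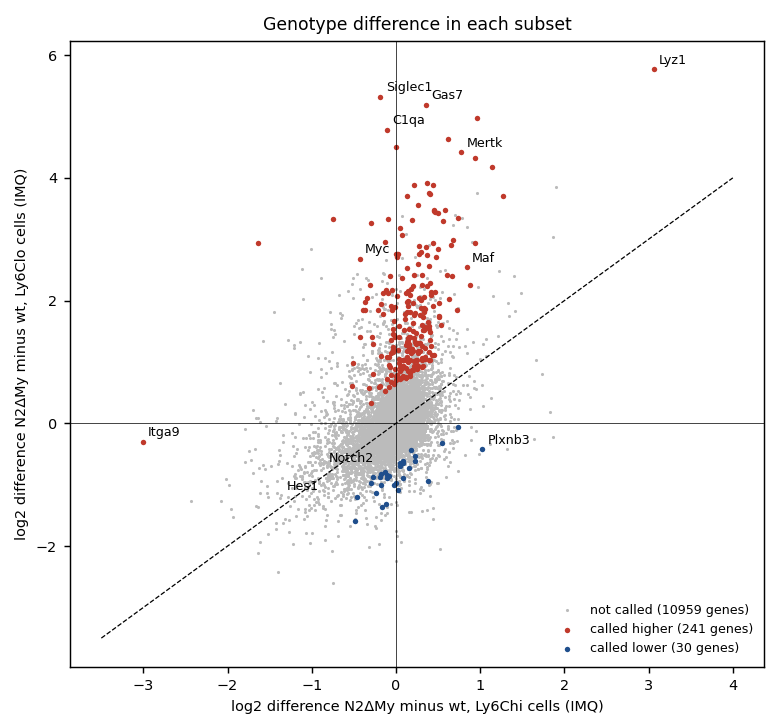
Each point is 1 of 11230 genes, with the log2 difference N2ΔMy minus wt in Ly6Chi cells on the x axis and in Ly6Clo cells on the y axis (log2 of normalised count + 1, 4 libraries per group), and the dashed line marks equal differences. The 241 genes called higher lie above the line with 20 of them beyond 0.6 in size on the x axis, the 30 called lower lie below it, and Notch2 and Hes1 lie close to it.

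The targeted gene was lowered to a like extent in both subsets. Notch2 stood at 14982, 14001, 13993 and 12656 in wt and at 8311, 7240, 7611 and 7303 in N2ΔMy Ly6Chi libraries. It stood at 20005, 16624, 16037 and 18399 in wt and at 10987, 9368, 11137 and 11518 in N2ΔMy Ly6Clo libraries. The genotypes did not overlap in either subset, with a log2 difference of -0.87 in Ly6Chi cells and -0.72 in Ly6Clo cells, and the interaction was 0.14 with a 95% interval of -0.09 to 0.38 (adjusted p = 0.677 in limma). The values count the whole gene, so reads from outside the floxed part are included. Hes1 lay at 132 to 189 in wt against 44 to 110 in N2ΔMy Ly6Chi cells, and at 592 to 788 against 252 to 368 in Ly6Clo cells. Its differences were -1.37 and -1.18, with no overlap of the genotypes in either subset, and its interaction was 0.19 with an interval of -0.39 to 0.77.

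Of 18 tested genes for Notch receptors and their processing, 1 was called higher and 0 lower (5.556%, against 2.41% of all genes), and the median interaction was 0.0015. The exception was Notch1, the paralog of the deleted receptor, which lay at 337 to 696 in wt and 849 to 1505 in N2ΔMy Ly6Clo cells, without overlap, and at 2043 to 2894 and 2379 to 3763 in Ly6Chi cells, with overlap. Its interaction was 0.77 ± 0.20 (SE; adjusted p = 0.0471), and the call was lost in 24 of 37 alternatives, among them the fit without the replicate block (adjusted p = 0.456; 0.00305 to 0.516 over its alternatives). Among 15 tested ligands, nuclear effectors and targets, Myc was called higher and Maml2 lower (13.33%). Myc, a transcription factor that drives growth, stood at 30, 47, 137 and 91 in N2ΔMy Ly6Clo libraries and at 7, 6, 19 and 9 in wt Ly6Clo libraries, while the Ly6Chi groups overlapped at 11 to 47. Every N2ΔMy Ly6Clo library was above every wt Ly6Clo library, and the interaction was 3.11 ± 0.48 (adjusted p = 0.00115). Maml2, a coactivator of the Notch transcription complex, lay at 285 to 499 in wt and 156 to 235 in N2ΔMy Ly6Clo cells and at 105 to 153 over both Ly6Chi groups, with an interaction of -0.97 ± 0.22 (adjusted p = 0.0217). Adam10, Adam17, Ncstn and Rbpj, which cleave the receptor or carry its signal, had interactions between 0.03 and 0.20 and none was called.

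Of 25 tested transcripts that mark patrolling monocytes, 17 were called lower in N2ΔMy Ly6Clo cells and 8 in N2ΔMy Ly6Chi cells, against 2.76% and 0.294% of all genes. Of the 25, 1 was called in the interaction, a share of 4.0% against 2.41% of all genes, and the median interaction was -0.06. The medians of the genotype difference were -0.74 in Ly6Clo and -0.54 in Ly6Chi cells. Nr4a1 stood at 17542, 16752, 16330 and 20934 in wt Ly6Clo and at 9659, 7536, 10007 and 12542 in N2ΔMy Ly6Clo libraries. In Ly6Chi cells it stood at 3858, 5445, 4936 and 5704 in wt and at 1752, 1675, 3868 and 3220 in N2ΔMy libraries. The Ly6Clo genotypes did not overlap and the Ly6Chi genotypes overlapped by a narrow margin, at 3858 against 3868. Its differences of -0.86 and -1.0 gave an interaction of 0.14 with an interval of -0.36 to 0.64. Ace, angiotensin-converting enzyme, differed by -1.19 in Ly6Clo and -1.28 in Ly6Chi cells, and Cd274, which encodes PD-L1, by -0.94 and -1.03. Their intervals of the interaction were -0.42 to 0.60 and -0.36 to 0.54. Pou2f2, a transcription factor of B cells and monocytes, had differences of -0.50 and -0.45, under the size needed for a call, and Treml4, a receptor of patrolling monocytes, had -0.92 and -0.97 and was called in Ly6Clo cells, while its adjusted p in Ly6Chi cells missed the threshold.

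In Ly6Chi cells the genotype difference was called for 33 lower (0.294%) and 9 higher genes (0.0801%) in the same model. Of the 33 lower in N2ΔMy Ly6Chi cells, 27 were also called lower in N2ΔMy Ly6Clo cells (2.76% of all genes), 1 was called in the interaction, and the median interaction was 0.15. The 33 include Bcl2, an inhibitor of apoptosis, at -1.52 in Ly6Chi and -1.20 in Ly6Clo cells, and Runx2, a transcription factor, at -0.82 and -0.94. In the Sham libraries, which entered neither difference, 32 of the 33 were below 0, with a median of -0.60. Of the 9 higher in N2ΔMy Ly6Chi cells, 8 were called higher in Ly6Clo cells too (5.69% of all genes), and 6 of the 9 were also called higher in the interaction, among them Lyz1, Lpl, Dok2, Maf and Rab7b, and Yaf2 was called lower (-0.79, adjusted p = 0.0447). The median of these 9 was 0.96 in Ly6Chi and 2.94 in Ly6Clo cells. The interaction shares the Ly6Chi libraries with the difference that chose these genes, so their interaction values are given as a description. The names outside the list rule were chosen after their values were seen.

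**Figure D2:**
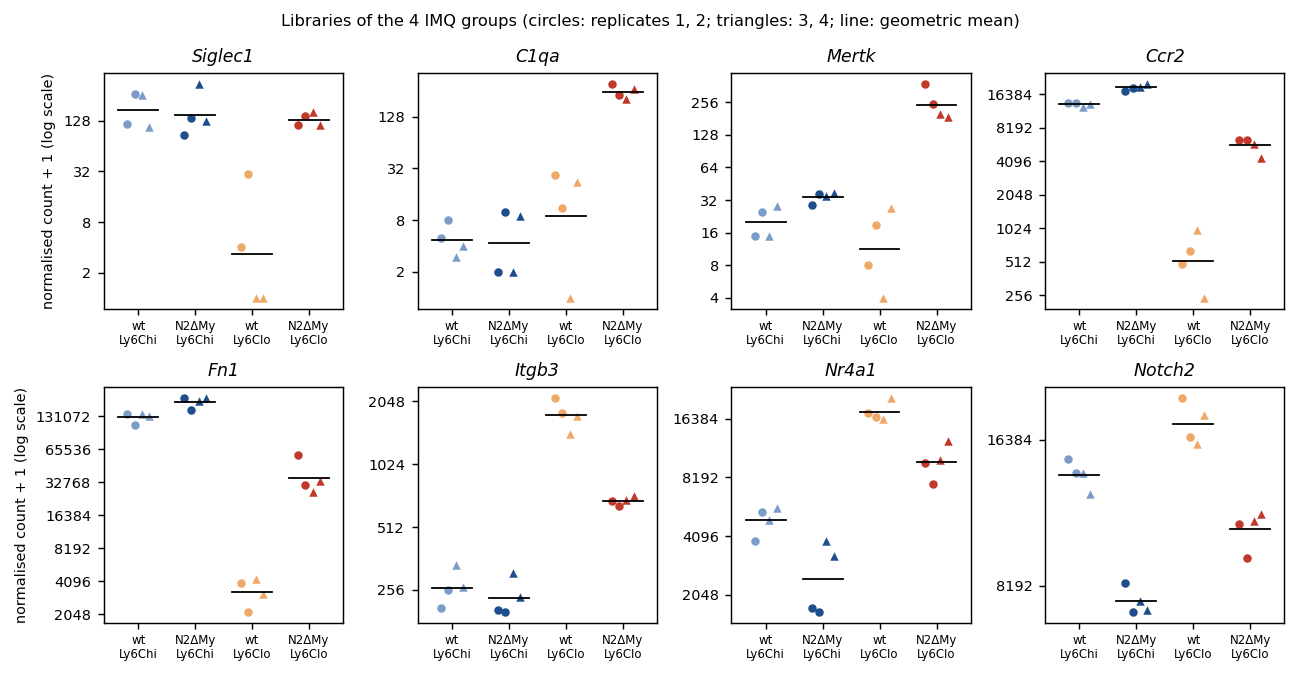
Normalised counts + 1 of 8 genes on a log scale in the 16 libraries, with circles for replicates 1 and 2, triangles for replicates 3 and 4 and a line at the geometric mean of each group. Siglec1, C1qa, Mertk, Ccr2 and Fn1 separate the genotypes in Ly6Clo cells far more than in Ly6Chi cells, Itgb3 does so downward, and Nr4a1 and Notch2 shift in both subsets.

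Macrophage genes were among the largest interactions. Of 27 tested genes for macrophage surface and secreted proteins, 13 (48.15%, against 2.41% of all genes) were called higher and 0 lower, with a median of 1.79. Fcgr1, which encodes the antibody receptor CD64, and Adgre1, which encodes F4/80, were not called, at 0.84 (adjusted p = 0.105) and 0.11 (adjusted p = 0.907). Siglec1, the sialic acid receptor CD169, stood at 112, 144, 163 and 114 in N2ΔMy Ly6Clo libraries and at 3, 29, 0 and 0 in wt Ly6Clo libraries. It lay between 85 and 351 in the 8 Ly6Chi libraries, where the genotypes overlapped. Its interaction was the largest of the genes named by size, 5.51 ± 0.95 (adjusted p = 0.00283), and since wt Ly6Clo values were at or near 0 the value depends on the pseudocount of 1. Siglec1 spans chr2:131069220-131086765 on the minus strand of GRCm38. In wt mice the receptor was therefore measured in Ly6Chi and hardly in Ly6Clo cells, and in N2ΔMy mice at like levels in both, with a difference between the subsets of -0.19.

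The 3 chains of C1q, which starts the classical complement cascade, had a different shape, since they were low in both Ly6Chi groups as well. C1qa stood at 305, 225, 203 and 266 in N2ΔMy Ly6Clo libraries, at 26, 10, 0 and 21 in wt Ly6Clo libraries and at 1 to 9 in the 8 Ly6Chi libraries. C1qb stood at 971, 742, 1187 and 1193, at 37, 102, 64 and 84, and at 16 to 79 in the same order of groups. C1qc stood at 361, 338, 428 and 568, at 12, 38, 20 and 25, and at 1 to 18. Each N2ΔMy Ly6Clo library exceeded all 12 others for the 3 genes. The interactions were 4.89 ± 0.97 for C1qa (adjusted p = 0.00843), 3.66 ± 0.50 for C1qb (adjusted p = 0.000316) and 3.04 ± 0.55 for C1qc (adjusted p = 0.00447). Without the replicate block C1qa did not pass (adjusted p = 0.0706; 0.000134 to 0.209 over its alternatives), and C1qb and C1qc did. Of 15 tested complement genes 4 were called higher (26.67%, against 2.41% of all genes), a count of 2 without the replicate block and of 1 within the second library series. Beside the C1q chains this was C4b, which stood at 780 to 1752 in N2ΔMy and 144 to 550 in wt Ly6Clo libraries, without overlap. In Ly6Chi libraries C4b lay at 534 to 1302.

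Promoters of 4 called genes of the macrophage list are shown to place these transcripts on the genome. The sequences are those of RefSeq on GRCm38.p6, 250 bases upstream of the start, read 5′ to 3′ along the gene, and capitals mark GAGGAA or its complement TTCCTC, the core of sites bound by the myeloid factor PU.1, and TGANTCA, the AP-1 motif. The windows are chr4:136886201-136886450 (minus strand) for C1qb, chr4:136892915-136893164 (minus) for C1qc, chr2:14229164-14229413 (plus) for Mrc1 and chr17:48346151-48346400 (plus) for Trem2.
C1qb: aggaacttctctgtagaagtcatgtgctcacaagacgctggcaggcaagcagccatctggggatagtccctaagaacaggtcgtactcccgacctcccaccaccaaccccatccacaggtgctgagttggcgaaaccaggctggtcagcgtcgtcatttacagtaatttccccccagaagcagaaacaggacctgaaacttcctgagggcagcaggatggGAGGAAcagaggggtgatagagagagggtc
C1qc: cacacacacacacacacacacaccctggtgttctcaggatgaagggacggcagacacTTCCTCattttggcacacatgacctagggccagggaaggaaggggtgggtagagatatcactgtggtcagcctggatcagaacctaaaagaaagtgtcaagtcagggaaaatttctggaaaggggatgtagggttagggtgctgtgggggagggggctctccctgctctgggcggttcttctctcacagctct
Mrc1: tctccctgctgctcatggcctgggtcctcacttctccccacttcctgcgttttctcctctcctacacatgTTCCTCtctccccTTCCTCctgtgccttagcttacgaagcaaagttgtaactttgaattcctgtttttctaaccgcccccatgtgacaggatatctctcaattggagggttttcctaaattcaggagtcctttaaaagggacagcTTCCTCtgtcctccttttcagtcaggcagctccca
Trem2: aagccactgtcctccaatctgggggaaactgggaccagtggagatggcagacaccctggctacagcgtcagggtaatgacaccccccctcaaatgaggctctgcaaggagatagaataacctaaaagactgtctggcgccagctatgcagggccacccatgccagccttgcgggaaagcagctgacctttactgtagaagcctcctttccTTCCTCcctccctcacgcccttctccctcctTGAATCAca

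Windows were found for 180 of the 241 higher and 17 of the 30 lower genes, with alternative starts of a gene counted separately. On either strand, the PU.1 core was in 80 of 242 windows of higher genes (33.1%), in 6 of 30 of lower genes (20%) and in 2239 of 9880 of all genes tested (22.7%). The AP-1 motif was in 27 (11.2%), 1 (3.33%) and 425 (4.3%) of them. TGGGAA, the core bound by Rbpj, was in 51 (21.1%), 3 (10.0%) and 1977 (20%). The share of windows of higher genes with the Rbpj core was thus close to that of all windows. Shares among higher genes and all genes were 16.9% and 12.3% for TGCTGA, a partial site of MAF proteins, 0.826% and 1.22% for TTGCGNAA, bound by C/EBP proteins, and 1.65% and 0.901% for AAAGGTCA, bound by Nr4a1. TGCTGA and TGANTCA can overlap in the letters TGA, and a match is only a description of the letters.

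Some receptors that take up dying cells or bind glycans were called higher too. Mertk, a tyrosine kinase receptor for apoptotic cells, stood at 376, 245, 197 and 184 in N2ΔMy Ly6Clo libraries, at 7, 18, 3 and 26 in wt Ly6Clo libraries and at 14 to 36 in Ly6Chi libraries, with an interaction of 3.64 ± 0.59 (adjusted p = 0.00154). The related receptor Axl lay at 79 to 230 and 31 to 44 in Ly6Clo cells (interaction 1.68 ± 0.32), and Stab1, stabilin-1, at 164 to 187 and 8 to 21 (2.61 ± 0.34). In the Ly6Chi libraries of both genotypes Axl lay at 203 to 469 and Stab1 at 60 to 166. For the 3 genes the Ly6Clo genotypes did not overlap. Among 19 tested genes of apoptotic cell uptake 3 were called higher and 1, Itgb3, lower (21.05%, against 2.41% of all genes), with a median of 0.05. Clec10a, a galactose-type lectin, lay at 104 to 240 in N2ΔMy and 6 to 35 in wt Ly6Clo cells (3.43 ± 0.43), and Mrc1, the mannose receptor, at 47 to 150 and 3 to 14 (3.13 ± 0.53). In Ly6Chi libraries Clec10a lay at 160 to 229 and Mrc1 at 35 to 82. Clec5a, Cd33 and Clec7a followed with 2.40, 1.56 and 1.06. In Ly6Chi libraries they lay at 276 to 534, 760 to 1415 and 3827 to 5085. In N2ΔMy Ly6Clo libraries they lay lower, at 16 to 34, 149 to 191 and 1047 to 1249. Of 26 listed Siglecs, C-type lectins and CD300 genes, 6 were called higher and 0 lower (23.08%, against 2.41% of all genes), with a median of 0.67. Cd300lh, a CD300 family receptor outside this list, was called lower (-1.32).

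Further members showed how far the level in N2ΔMy Ly6Clo cells differed between genes. Gas7, an adaptor of the cytoskeleton, stood at 2676, 2306, 2364 and 1957 in N2ΔMy Ly6Clo libraries against 50, 49, 145 and 42 in wt Ly6Clo libraries and 3090 to 5118 in Ly6Chi libraries. The wt Ly6Clo libraries were all far below the other 12, and the interaction was 4.84 ± 0.30 (adjusted p = 5.93e-08). Lpl, lipoprotein lipase, rose in both subsets and more in Ly6Clo cells, from 140 to 248 in wt to 2269 to 2966 in N2ΔMy libraries there, and from 388 to 774 to 1091 to 1673 in Ly6Chi cells (interaction 2.44 ± 0.24, adjusted p = 1.75e-05). Cd5l, a protein secreted by macrophages, stood at 149, 120, 197 and 229 in N2ΔMy Ly6Clo libraries, 0, 16, 5 and 30 in wt Ly6Clo libraries and 0 or 4 in Ly6Chi libraries. The N2ΔMy Ly6Clo libraries stood apart from the rest, but the interaction of 4.50 passed by little (adjusted p = 0.0462) and fell outside the threshold in 26 of 37 alternatives, among them the fit without the block (adjusted p = 0.168; 0.000779 to 0.434 over its alternatives). Trem2, a lipid receptor, lay at 7 to 29 in N2ΔMy and 2 to 6 in wt Ly6Clo cells, with a level of 132 to 180 in Ly6Chi cells, and its call (1.89, adjusted p = 0.0431) was lost in 27 of 37 alternatives, including the fit without the block (adjusted p = 0.143; 0.0141 to 0.39 over its alternatives).

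Lyz1 needs a separate word because it lies next to Lyz2, the locus that holds Cre, and the 2 genes are close copies whose reads may be shared. Lyz1 stood at 84, 93, 175 and 152 in wt and 659, 664, 1496 and 1582 in N2ΔMy Ly6Chi libraries, and at 31, 31, 40 and 48 in wt and 2512, 1398, 2210 and 2354 in N2ΔMy Ly6Clo libraries. The genotypes were far apart in both subsets, and the difference was 3.06 in Ly6Chi and 5.77 in Ly6Clo cells under IMQ and 2.95 in Ly6Chi cells after Sham. Its interaction was 2.71 ± 0.26 (adjusted p = 1.25e-05). Lyz2 differed by -0.51 in Ly6Chi and 0.35 in Ly6Clo cells and was not called (interaction 0.86, adjusted p = 0.0619). The part of the inserted allele in these values was not tested.

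Of 19 tested transcription factors of macrophages, 2 were called higher and 0 lower (10.53%, against 2.41% of all genes), 7 had an unadjusted p under 0.05, and the median was -0.21. Maf, which controls macrophage genes, stood at 2991, 2972, 3426 and 3137 in N2ΔMy and at 419, 491, 727 and 555 in wt Ly6Clo libraries, and at 1369, 1382, 2243 and 1941 against 703, 915, 1321 and 947 in Ly6Chi libraries. The genotypes were separate in both subsets and the gap was wider in Ly6Clo cells, with an interaction of 1.7 ± 0.14 (adjusted p = 1.79e-06). Mitf, a regulator of lysosomal genes in some lineages, was called at 0.69 ± 0.16. Irf4, an interferon regulatory factor counted among the factors of conversion, lay at 766 to 1399 in N2ΔMy and 143 to 408 in wt Ly6Clo cells and was the 1 gene of 18 on that list that was called (5.556%; 1.78 ± 0.22, adjusted p = 0.000139). In Ly6Chi libraries Irf4 lay at 724 to 1276.

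Of 24 tested genes of the list for classical monocytes, 8 were called higher and 1 lower (37.5% in all, against 2.41% of all genes), with a median of 0.67. Fn1, fibronectin, stood at 57919, 30795, 26927 and 33841 in N2ΔMy and at 3957, 2158, 4325 and 3163 in wt Ly6Clo libraries, against 109248 to 192447 in Ly6Chi libraries, with an interaction of 2.97 ± 0.23 (adjusted p = 1.01e-06). Vcan, the proteoglycan versican, stood at 1785, 1886, 743 and 1282 and at 115, 69, 153 and 77, against 12389 to 24987 (3.36 ± 0.36). F13a1, the coagulation factor XIII A chain, stood at 1754, 1384, 1962 and 1190 and at 71, 74, 450 and 120, against 19222 to 30456 (3.29 ± 0.43). For these 3 genes the Ly6Clo genotypes were separate, and N2ΔMy Ly6Clo cells remained below Ly6Chi cells of either genotype. F5, coagulation factor V, Cd93 and Gda, guanine deaminase, were called at 1.45, 1.22 and 0.63. Mgst1, a microsomal glutathione transferase, was the exception, at 401 to 514 in N2ΔMy and 621 to 773 in wt Ly6Clo cells (-0.76 ± 0.14, adjusted p = 0.00502).

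The level in a Ly6Clo library was also set as a percentage of the Ly6Chi library of the same number and genotype. In N2ΔMy mice it was 2.27% ± 1.37 for Ly6c2, 6.09% ± 1.39 for F13a1, 6.69% ± 1.3 for Vcan, 20.8% ± 6.62 for Fn1 and 30.7% ± 6.27 for Ccr2 (SD, n = 4). In wt mice it was 0.819% ± 0.453, 0.799% ± 0.777, 0.699% ± 0.375, 2.60% ± 0.523 and 4.50% ± 2.60 in the same order. The excess of N2ΔMy over wt Ly6Clo cells came to 1.55% ± 1.19 of the N2ΔMy Ly6Chi level for Ly6c2, 18.9% ± 6.66 for Fn1 and 27.5% ± 5.53 for Ccr2. Ly6c2 itself was not called (1.38, adjusted p = 0.0734), and its N2ΔMy Ly6Clo libraries stood at 51, 46, 382 and 58, with replicate 3 apart from the rest. Over the 24 tested genes of the list, the mean percentage was higher in N2ΔMy than in wt mice for 17 and lower for 7. Among the latter were Mgst1 (26.7% against 44.8%), Plac8 (33.1% against 41.0%) and Hp, haptoglobin (37.5% against 42.4%), of which Mgst1 was called in the interaction. Sirpb1a, Sirpb1b and Sirpb1c were among them too, and in wt mice these stood above their Ly6Chi level, at 274%, 174% and 118%. The percentages also differed between genes in wt mice, from 0.699% for Vcan to 274% for Sirpb1a, and Ly6c2 encodes the antigen that separates the gates. The part of Ly6Chi cells in the Ly6Clo libraries was not tested. The summed level of the 25 listed classical genes was 23016 to 27277 in wt Ly6Clo, 59471 to 97233 in N2ΔMy Ly6Clo and 216844 to 350789 in Ly6Chi libraries, while the sum of 26 patrolling genes was 294950 to 340492 in wt and 198220 to 215309 in N2ΔMy Ly6Clo libraries. The patrolling sum was also lower in N2ΔMy than in wt Ly6Chi libraries in its range, at 55071 to 78795 against 65903 to 99920, with overlap. The part of these sums in the other results was not tested.

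**Figure D3:**
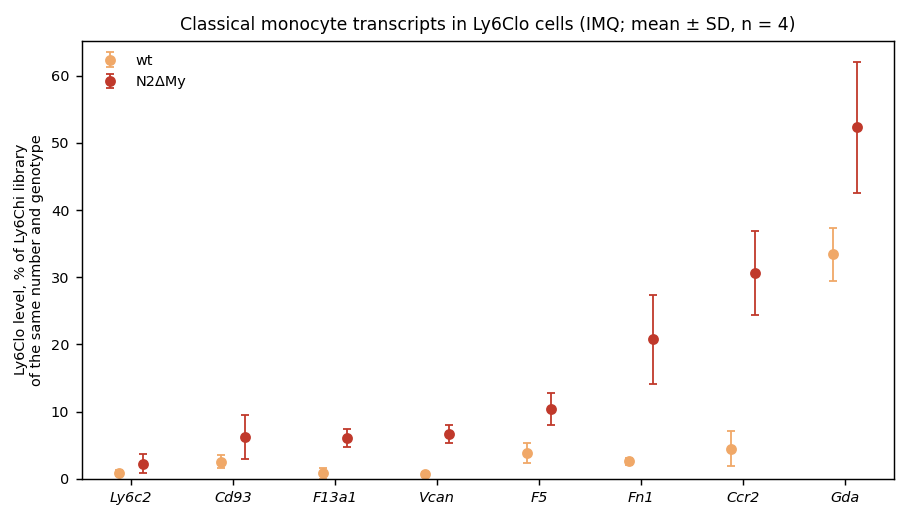
Level of Ly6c2 and 7 classical monocyte transcripts called higher in the interaction, in Ly6Clo libraries, in percent of the Ly6Chi library of the same number and genotype, as mean and SD over 4 numbers for wt and N2ΔMy mice after IMQ. The N2ΔMy values run from 2.27% for Ly6c2 to 30.7% for Ccr2 and 52.4% for Gda and are above the wt mean for each of these 8 genes, which were drawn because they were called higher or encode Ly6C.

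Chemokine receptors were among the clearest members. Of 14 tested chemokines and receptors, 4 were called higher and 0 lower (28.57%, against 2.41% of all genes), with a median of 0.93. Ccr2, the receptor by which Ly6Chi cells leave the bone marrow, stood at 6279, 6281, 5879 and 4393 in N2ΔMy and at 482, 641, 991 and 241 in wt Ly6Clo libraries, against 12476 to 13680 in wt and 17456 to 20176 in N2ΔMy Ly6Chi libraries. Its genotypes were separate in both subsets, and the interaction was 2.94 ± 0.33 (adjusted p = 4.63e-05). Ccr1, a receptor for Ccl3 and Ccl5, lay at 46 to 77 and 1 to 15 in Ly6Clo cells against 267 to 715 in Ly6Chi cells (2.74 ± 0.61), and the chemokine Ccl9 at 5354 to 6855 and 1010 to 1899 against 5387 to 12569 (1.67 ± 0.17). Cx3cr1, whose locus carries GFP, had genotype differences of 0.52 in Ly6Clo and 0.31 in Ly6Chi cells and was not called (0.22, interval -0.16 to 0.60).

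MHC class II genes had a list median of 2.20, the highest among lists with 10 or more tested genes, although both gates excluded cells with surface MHC-II. Of 11 tested, 4 were called higher (36.36%, against 2.41% of all genes) and 0 lower. H2-Aa stood at 517, 642, 6134 and 3083 in N2ΔMy Ly6Clo libraries, at 213, 273, 736 and 67 in wt Ly6Clo libraries and at 114 to 409 in Ly6Chi libraries. H2-Eb1 stood at 415, 533, 5081 and 2778, at 128, 247, 627 and 42, and at 57 to 265. Replicates 3 and 4 of the N2ΔMy Ly6Clo group were far above replicates 1 and 2 for both genes, and the Ly6Clo genotypes overlapped at wt replicate 3. Cd74, the invariant chain, stood at 3446, 3749, 18001 and 9453 in N2ΔMy and at 1322, 1648, 2679 and 467 in wt Ly6Clo libraries, without overlap. The interactions were 3.08 ± 0.76 for H2-Eb1 (adjusted p = 0.0347), 2.75 ± 0.70 for H2-Aa (adjusted p = 0.0425), 2.20 ± 0.51 for Cd74 (adjusted p = 0.0239) and 1.18 ± 0.20 for H2-DMa, a chain of the peptide exchange factor (adjusted p = 0.00202). H2-Ab1 (2.62, adjusted p = 0.0542) and Ciita, the transactivator of the class (2.61, adjusted p = 0.062), did not pass.

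The MHC class II calls rested on particular libraries. Without the replicate block 0 of the 11 genes were called, without N2ΔMy Ly6Clo replicate 3 only H2-DMa was, within the first library series 5 were (median 1.32) and within the second 2 (median 3.09). Adjusted p-values of H2-DMa and of H2-Aa without the block were 0.646 and 0.391, with ranges of 0.000704 to 0.646 and 0.00366 to 0.391 over their alternatives. Of 10 tested dendritic cell markers 0 were called in limma (3 at an unadjusted p under 0.05), 2 were called higher in N2ΔMy than in wt Ly6Clo cells (5.69% of all genes), their median interaction was 1.03, and this median was -0.17 in replicates 1 and 2 and 2.18 in replicates 3 and 4. The sum over 16 dendritic cell markers was 4088 to 5358 in wt Ly6Clo, 3660 to 6917 in N2ΔMy Ly6Clo and 4956 to 6228 in Ly6Chi libraries, with Cd8a, Ccr7 and Fscn1 at 3 or below in all 16. Summed B cell markers were 143 to 447 in N2ΔMy and 130 to 160 in wt Ly6Clo libraries, with Ms4a1 at 3 or below throughout. The part of such cells in the MHC class II result was not tested.

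**Figure D4:**
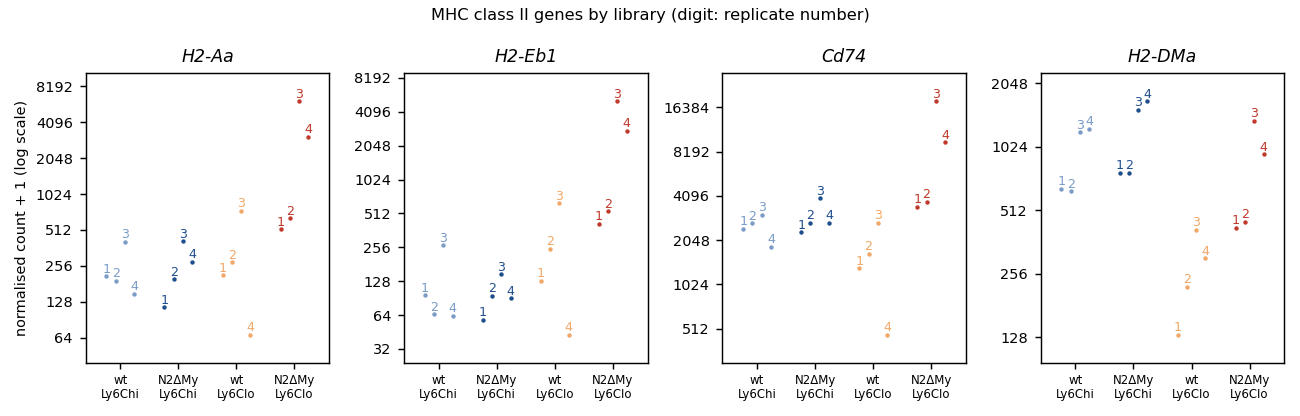
Normalised counts + 1 of 4 MHC class II genes on a log scale in the 16 libraries, each drawn as a point under its replicate number. In N2ΔMy Ly6Clo cells replicates 3 and 4 lie above replicates 1 and 2 for H2-Aa (6134 and 3083 against 517 and 642), and wt Ly6Clo replicate 3 is the highest of its group.

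Markers of other blood cells were mostly low. Neutrophil markers summed to 2130 to 3328 in N2ΔMy and 3121 to 4130 in wt Ly6Clo libraries against 6759 to 11757 in Ly6Chi libraries, with Ly6g at 3 or below. The 7 tested neutrophil markers had a median interaction of 0.97, and 3 of them were called higher in N2ΔMy than in wt Ly6Clo cells (5.69% of all genes), the opposite direction to the sum. Their part in the other results was not tested. T cell markers summed to 29 or less in all 16 libraries. NK cell markers summed to 13 to 283 in N2ΔMy and 2 to 73 in wt Ly6Clo libraries, and Ncr1 was at 3 or below. Platelet markers summed to 77 to 187 in N2ΔMy and 127 to 307 in wt Ly6Clo libraries, and erythroid markers to 0 to 1573 and 2 to 1311. Of the 7 neutrophil, 2 B cell, 2 NK cell, 3 platelet and 5 erythroid markers tested, 0 were called in limma, and 3, 1, 1, 0 and 0 of them had an unadjusted p under 0.05. The 2 NK cell markers had a median interaction of 2.65, and 1 of them was called higher in N2ΔMy than in wt Ly6Clo cells.

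Lists for iron, innate sensing and survival held 1 or 2 called genes each. Steap3, an endosomal ferrireductase, lay at 189 to 300 in N2ΔMy and 7 to 19 in wt Ly6Clo cells (3.45 ± 0.36, adjusted p = 2.23e-05) and was the 1 gene called of 21 for iron and heme (4.762%, against 2.41% of all genes). Cav2, caveolin-2, lay at 49 to 115 and 1 to 11 (3.56 ± 0.51), and Psd3, an exchange factor for Arf6, at 87 to 175 and 4 to 26 (3.34 ± 0.66). For all 3 the Ly6Clo genotypes were separate. In Ly6Chi libraries Steap3 lay at 194 to 346, Cav2 at 88 to 163 and Psd3 at 10 to 29. Of 34 tested pattern recognition genes Tlr2 (1.07) and Tlr9 (0.64) were called (5.882%), and Tlr7, the receptor of imiquimod, was not. Of 19 AP-1 and immediate early genes Batf3 (1.17) and Atf3 (0.95) were called (10.53%), and of 15 Bcl2 family genes the pro-apoptotic Pmaip1 (0.81) and Bcl2l11 (0.68) were (13.33%), against 2.41% of all genes. Of 35 interferon-stimulated genes, Ifi205 (2.06) and Oas2 (1.07) were called higher and Zbp1 (-0.68) lower, with a list median of 0.15 (8.571% called). Of 35 lysosomal genes Ctsc, cathepsin C, was called at 0.63 (2.857% of the list). No gene was called in limma among 16 cytokines, 7 Fc receptors, 26 cell cycle, 27 glycolysis and 27 ribosomal protein genes, whose medians lay between -0.10 and 0.23. An unadjusted p under 0.05 was found for 3, 2, 6, 3 and 0 of them.

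**Figure D5:**
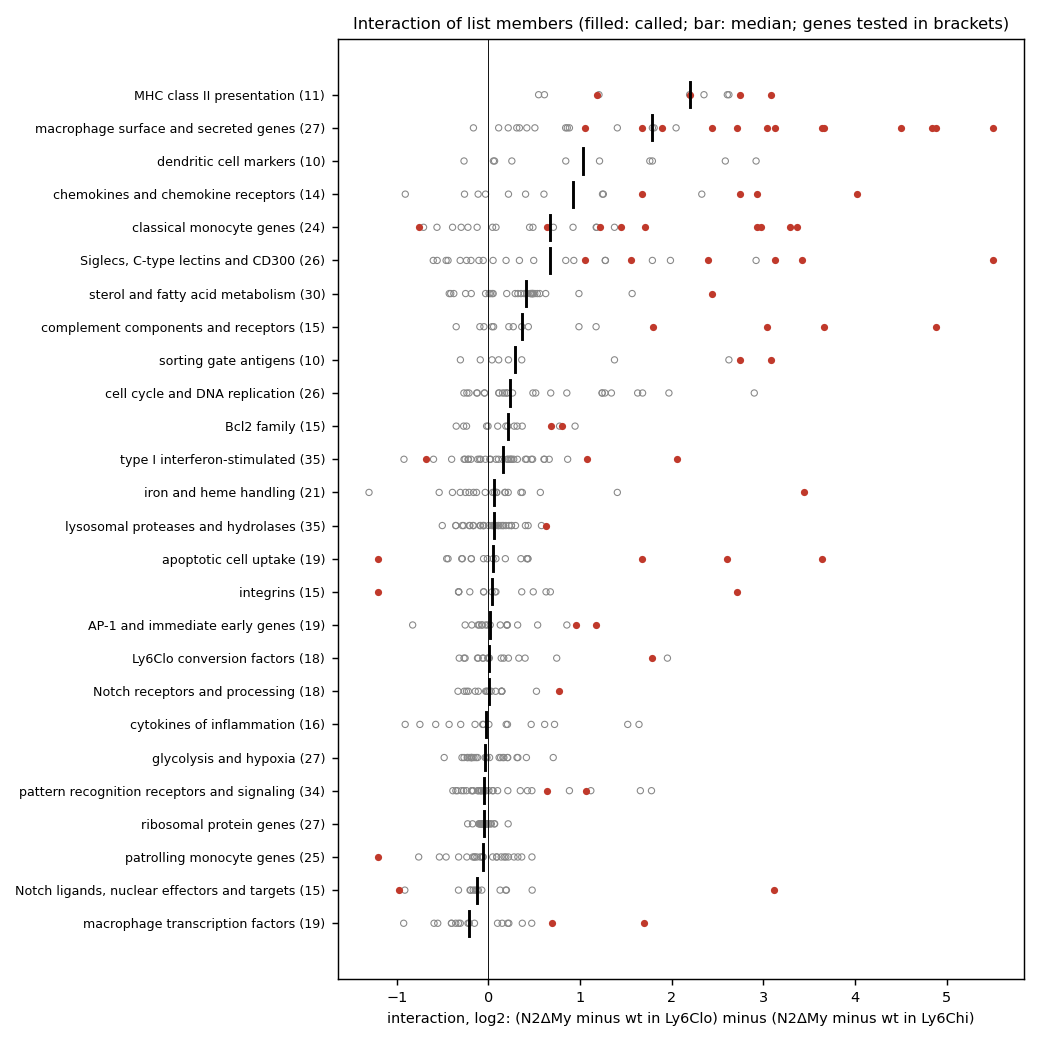
Interaction of the tested members of each gene list with 10 or more tested genes on the log2 scale, filled where called, with a bar at the list median and the number tested in brackets. MHC class II (median 2.20) and macrophage surface genes (1.79) lie farthest to the right, while patrolling monocyte genes (-0.06) and ribosomal protein genes (-0.05) centre on 0.

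Of the 30 genes called lower, 26 had their highest mean in wt Ly6Clo cells. Syne1, which encodes nesprin-1 and links the nucleus to actin, stood at 6410, 5730, 5365 and 5220 in wt and at 2337, 2061, 1756 and 1464 in N2ΔMy Ly6Clo libraries, against 230 to 391 in Ly6Chi libraries, with an interaction of -1.10 ± 0.17 (adjusted p = 0.000918). Itgb3, the beta3 integrin chain, stood at 2124, 1798, 1432 and 1740 in wt and at 682, 647, 687 and 716 in N2ΔMy Ly6Clo libraries, against 200 to 337 in Ly6Chi libraries (-1.20 ± 0.21, adjusted p = 0.00341). Bard1, the partner of Brca1 in DNA repair, lay at 369 to 557 and 147 to 239 in Ly6Clo cells (-1.19 ± 0.24). The Ly6Clo genotypes were separate for these 3 genes. Gne, which starts the synthesis of sialic acid, Cyp39a1, an oxysterol hydroxylase, Bmx, a Tec family kinase, and Gstm4, a glutathione transferase, were called at -0.87, -0.90, -0.97 and -1.12, each without overlap in Ly6Clo cells. The gene named RP23-137L8.2 was called at -0.97.

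For 3 of the 30 lower genes the larger genotype difference lay in Ly6Chi cells, among them Plxnb3 and Ip6k3. Plxnb3, a semaphorin receptor, stood at 10, 13, 20 and 15 in wt and 35, 32, 22 and 31 in N2ΔMy Ly6Chi libraries, without overlap, and at 377 to 682 and 342 to 512 in Ly6Clo libraries, with overlap (-1.44 ± 0.33, adjusted p = 0.0219). Ip6k3, an inositol hexakisphosphate kinase, was at 125 to 228 in wt and 229 to 322 in N2ΔMy Ly6Chi cells, also without overlap (-0.86 ± 0.20, adjusted p = 0.0208). Among the 241 higher genes the larger of the 2 differences lay in Ly6Chi cells for Itga9 alone. Itga9, the alpha9 integrin chain, stood at 20, 15, 4 and 4 in wt and 0, 1, 0 and 0 in N2ΔMy Ly6Chi libraries and overlapped in Ly6Clo libraries at 96 to 194, so that its interaction of 2.71 (adjusted p = 0.0162) compares levels of a few counts. Cd300lh, a CD300 family receptor, stood at 332, 327, 717 and 1294 in wt and 125, 128, 571 and 800 in N2ΔMy Ly6Clo libraries, with replicates 3 and 4 above 1 and 2 in every group and overlap of the genotypes. Its call (-1.32, adjusted p = 0.0481) was lost in 27 of 37 alternatives and without the block (adjusted p = 0.981; 0.0195 to 0.981 over its alternatives).

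Sham-treated Ly6Chi libraries, which do not enter the interaction, were used to see whether the called genes differed by genotype without IMQ. The median difference N2ΔMy minus wt over the 241 higher genes was 0.12, and 174 of them (72.2%) were above 0, against a median of 0.0088 and 52.22% over all genes tested. For the 30 lower genes the median was -0.02. Across all 11230 genes, 1 was called higher (0.0089%) and 2 lower (0.0178%) between the Sham genotypes in limma. In the interaction every one of the 241 and of the 30 genes had the same sign in each of the 4 replicate numbers, which holds for 25.02% of all genes tested. Since the test selects for such genes, this is a description.

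The replicate number was part of the model by the definition of the comparison. Libraries of the same number deviated together, with a mean correlation of 0.448, and of 0.159 within library series. Without this block, 109 genes were called higher and 7 lower, and of the 65 called genes named by rule 31 lost the call. Of the genes with values above, those that lost it and are not yet marked included H2-Eb1, Cd74, Itga9, C4b, Axl, Cd93, Gda, Batf3, Atf3, Tlr2, Tlr9, Mitf, Ifi205, Oas2, Ctsc, Zbp1, Maml2, Bard1, Bmx, Gstm4, Ip6k3, Plxnb3 and RP23-137L8.2. Gas7, Steap3, Fn1, Ccr2, Vcan, Lyz1, Lpl, Maf, Irf4, Syne1 and Itgb3 were among those that kept it. Over all 37 alternatives the call was lost in 20 or more also for Batf3 (26), RP23-137L8.2 (24), Gstm4 (23), Atf3 (22), H2-Aa, Tlr9 and Gda (21 each) and Ctsc (20). Within library series, 264 genes were called higher and 55 lower in the first and 40 and 1 in the second, and no called gene changed sign in either. Among list members called higher, the count without the block was 9 for macrophage surface genes, 5 for classical genes and 4 for chemokines and receptors, and within the second series it was 6, 2 and 2.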

How the data were processed

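RNA of sorted blood monocytes was sequenced after a stranded total RNA library protocol for low input. According to the submitters' notes and the study's methods, the authors trimmed reads with Trim Galore 0.4.4, aligned them with STAR 2.5.3a within nf-core/rnaseq 1.5dev on mouse GRCm38.p6 with GENCODE M17, and normalised counts per gene with DESeq2. The deposited values are these normalised counts rounded to whole numbers, a score and not raw counts, so no count model was used. Columns with the authors' own fold changes and p-values were not used.

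Of 53715 genes, 25137 were at 0 in every library. The 11230 genes that reached 50 in 1 or more of 24 libraries were fitted on log2(value + 1) in limma 3.58.1 (R 4.3.3) with a trend, the 16 IMQ libraries and the replicate number as a block, leaving 9 residual degrees of freedom. Fold changes on this scale understate those of low genes. P-values are two-sided and adjusted after Benjamini-Hochberg over all genes tested. A call needed an adjusted p no greater than 0.05 and a log2 value of 0.6 or more in size. The Sham genotypes were fitted the same way. The block was set by the definition of the comparison. All 24 correlations of same-numbered deviations between groups exceeded 0.1 (mean 0.448, 0.247 to 0.619). Within library series they were smaller (mean 0.159, 0.0286 to 0.263), so the series had a share in them. Whether same-numbered Ly6Chi and Ly6Clo libraries share a mouse is not given in the sources used here.

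Named genes were the 12 largest interactions in each direction among called genes with a mean of at least 100 in an IMQ group and 1 sign in all 4 numbers, every called member of 33 gene lists, and the genes the study or the gates name. The members and lists were chosen with earlier results of these data known. Reads per library were inferred from the step between rounded values. The method was tested on simulated data. Alternatives varied the block, libraries, pseudocount, filter, scaling and model. Promoters came from RefSeq, and calculations used Python 3.11.15, numpy 2.4.6, pandas 2.3.3 and matplotlib 3.10.9. Some genes that met these rules are not reported here.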

Additional observations from a re-analysis of the deposited data

Results flagged for a closer look

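In 17 of 320 checks of 4 libraries, 1 library stood apart from the rest of its group (gap to the nearest library over the range of the group), against about 1 in 20 by chance. In wt Ly6Clo cells this was replicate 2 for Siglec1 (29 against 0 to 3; 0.897) and Psd3 (26 against 4 to 7; 0.864), and replicate 3 for Gas7 (145 against 42 to 50; 0.922), F13a1 (450 against 71 to 120; 0.871), C4b (550 against 144 to 196; 0.872) and Plxnb3 (377 against 636 to 682; 0.849). Replicate 4 was low for Stab1 (8 against 19 to 21; 0.846). In N2ΔMy Ly6Clo cells it was replicate 1 for Steap3 (300 against 189 to 201; 0.892) and replicate 3 for Ly6c2 (382 against 46 to 58; 0.964) and Oas2 (678 against 321 to 382; 0.8291). In wt Ly6Chi cells it was replicate 3 for H2-Eb1 (265 against 62 to 95; 0.837) and Axl (409 against 214 to 241; 0.862), and replicate 4 for Tlr9 (593 against 832 to 879; 0.836). In N2ΔMy Ly6Chi cells it was replicate 2 for Syne1 (335 against 230 to 236; 0.943) and for Itga9, which was at 1 against 0 (1.0). Cd5l was at 4 in 1 library of each Ly6Chi group and at 0 in the others (1.0 in both).

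The genotype difference itself differed between the subsets, by the interaction term in limma, for 241 genes in the upward and 30 in the downward direction. The largest log2 interactions were 5.51 for Siglec1, 4.89 for C1qa, 4.84 for Gas7, 4.50 for Cd5l, 3.66 for C1qb, 3.64 for Mertk, 3.56 for Cav2, 3.45 for Steap3, 3.43 for Clec10a, 3.36 for Vcan and 3.34 for Psd3. In the other direction they were -1.44 for Plxnb3, -1.32 for Cd300lh, -1.20 for Itgb3, -1.19 for Bard1, -1.12 for Gstm4, -1.10 for Syne1, -0.97 for each of Bmx, Maml2 and RP23-137L8.2, -0.90 for Cyp39a1, -0.87 for Gne and -0.86 for Ip6k3.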

How the results depend on the processing

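Against 241 genes higher and 30 lower, limma called 109 and 7 without the replicate block, 264 and 55 within the first and 40 and 1 within the second library series, 91 and 11 with no filter on low values (28578 genes), 151 and 20 without the trend, 291 and 63 with the Sham libraries as the Ly6Chi reference, and 97 and 2 with limits of 0.01 on the adjusted p and 1 on the log2 value. Leaving out 1 library or 1 replicate number gave 121 to 283 higher and 13 to 46 lower. Leaving out numbers 1, 2 and 4 gave 121 and 16, 123 and 13, and 149 and 20, and among single libraries wt Ly6Clo replicate 1 gave 19 lower and wt Ly6Clo replicate 3 gave 46 lower. The other alternatives stayed within 1.5 times of both counts. These were pseudocounts of 0.1 (234 and 29) and 8 (240 and 36), upper-quartile scaling (244 and 31), quantile normalization (218 and 33), series as a covariate (185 and 25), 8 pairs as blocks (236 and 30), all 24 libraries (266 and 29), robust variances (223 and 33), a filter on 4 libraries (231 and 30), a floor of 1.1 (237 and 29) and, chosen after seeing the data, voom weights on recovered reads (257 and 31). At the thresholds of the report, the share of called genes that were higher ranged from 82.2% to 97.56%. Only with the Sham reference did a called gene change sign, and this was Plxnb3 at 0.0285 (adjusted p = 0.989; 0.00085 to 0.989 over its alternatives). The cause of these shifts was not tested, apart from the fewer libraries or more genes that some alternatives hold by construction. Depth limits values of a few counts, such as those of Siglec1 in wt Ly6Clo and Itga9 in Ly6Chi cells.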

Other observations

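Mouse loci that differ by design between the genotypes, or that carry the reporter, were looked at after the values were seen. Within 5 Mb of Cx3cr1 on chromosome 9, 4 of 55 tested genes were called in the interaction (7.273% against 2.41% of all genes), among them Itga9, Ccr1 and Ccr2. Within 5 Mb of Lyz2 on chromosome 10, 1 of 38 was called (2.632%), the neighbour Lyz1. Within 5 Mb of Notch2 on chromosome 3, 4 of 102 were called (3.922%), namely S100a10, Adamtsl4, Ecm1 and Plekho1. Whether sequence linked to these alleles has a part in the values was not tested.

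Cd36, a scavenger receptor, had log2 differences of 1.83 in Ly6Clo and 1.41 in Ly6Chi cells, the latter not called, and an interaction of 0.42 (95% interval -0.64 to 1.48, adjusted p = 0.832 in limma). Its values were 698, 761, 424 and 1761 in wt and 3980, 2934, 1969 and 2757 in N2ΔMy Ly6Clo libraries, without overlap. Cd14, the coreceptor for endotoxin, lay at 166 to 226 and 384 to 652 in the same groups, also without overlap, and its interaction of 0.88 did not pass (adjusted p = 0.0623).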
